A study of Mus musculus with 4 samples.

Results

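Chromatin regulator genes were taken from the deposited expression table by symbol. A gene belonged to the set if its name began with the symbol of a demethylase (Kdm), a methyltransferase (Kmt, Setd, Smyd, Ezh, Prdm, Prmt, Dnmt), a deacetylase (Hdac), an acetyltransferase or coactivator (Kat, Ncoa), a cytosine dioxygenase (Tet), a reader (Cbx, Brd, Baz), a remodeller or associated subunit (Smarc, Arid, Chd) or a high mobility group protein (Hmga, Hmgb, Hmgn), where Kat, Tet, Chd and the Hmg names had to be followed by a digit. These patterns, which use names alone, found 39 of the 3760 listed genes (1.04%). No Prdm, Prmt, Kat or Baz gene was listed. The largest family was that of the Smarc, Arid and Chd genes, with 12 members. The lysine methyltransferases and the high mobility group each had 7, and the remaining members were 3 demethylases, 3 deacetylases, 3 genes of DNA methylation, 2 Ncoa coactivators, Brd8 and Cbx3.

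Chromatin regulators set how tightly DNA is wrapped around histones and which proteins can read it. Writers add methyl or acetyl groups to histone tails or methyl groups to cytosine, erasers remove them, readers bind them, and remodellers use ATP to slide or evict nucleosomes. High mobility group proteins bend DNA or bind nucleosomes and have no enzymatic activity. In muscle precursors several of these proteins are known to act with the myogenic transcription factors or against them: Ezh2 represses muscle genes in myoblasts, class IIa deacetylases bind MEF2 factors, and BAF remodelling complexes open muscle promoters.

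Total RNA was sequenced from cultured myoblasts of adult C57BL/6 mouse skeletal muscle that the labels call twist2+. All 4 groups received a retrovirus over 24 h, followed by 24 h of growth medium, whose serum was 20% FBS. They were, in Twist2-IRES-GFP cells, the Twist2 differentiation medium group (a further 5 days in 2% horse serum) and the Twist2 growth medium group, and in cells given GFP alone the GFP differentiation medium group (also 5 days) and the GFP growth medium group. Each group had 1 library, so no difference below has a replicate check, no p-value is given, and the effect of a library and of a condition cannot be told apart. No source used here gives the number of animals or cultures, the promoter of the virus or whether infected cells were sorted.

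In the 4 libraries the listed genes held 3827231 to 6010575 reads, recovered from the steps of the deposited CPM (read counts scaled to library size), and a member had between 6 and 13043 reads in a library. Twist2 had 674 CPM in the Twist2 differentiation medium library and 1438 CPM in the Twist2 growth medium library, 0 reads in the GFP differentiation medium library and 1 read in the GFP growth medium library. The table does not separate viral from endogenous reads, and with 0 and 1 read in the GFP libraries the label twist2+ is not borne out by the Twist2 transcript there. Of 5 myoblast markers, 4 were listed, and their summed level was 4838 CPM (Twist2 differentiation medium), 1577 CPM (Twist2 growth medium), 8123 CPM (GFP differentiation medium) and 3361 CPM (GFP growth medium). The genes differed in direction. In that order Des had 2935, 726, 6503 and 1501 CPM, and Pax7 34.6, 60.5, 4.01 and 78.7 CPM. Myod1 had 1068, 547, 810 and 1184 CPM, and Cdh15 800, 243, 806 and 598 CPM. The sum is thus no measure of the share of myoblasts. None of the endothelial, immune, adipocyte or Schwann cell markers looked for was listed, which does not show that they were not expressed. Of 6 fibroblast and fibro-adipogenic markers Dcn and Ly6a were listed, with summed levels of 67.9, 43.5, 1.19 and 12.9 CPM in the same order. Dcn had 64.6, 10.6, 1.19 and 1.95 CPM, and Ly6a 3.32, 32.9, 0 and 10.98 CPM. In the Twist2 libraries Dcn was higher in differentiation medium and Ly6a lower, so the sum is no measure of the share of fibroblasts. The part of Dcn and Ly6a in the results was not tested.

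The table is a selection by the authors. All listed genes reached 10 CPM in at least 2 libraries and had an absolute log2 ratio of at least 1 against the GFP growth medium library in at least 1 of the other 3 libraries. The 39 members are therefore not all chromatin regulators that these cells express, and counts are read against the same counts over all listed genes. The selection passed 25 members on GFP differentiation medium, 24 on Twist2 differentiation medium and 5 on Twist2 growth medium, and some members passed on several. The members nearest to that threshold were Chd6 (largest absolute log2 ratio 1.01), Kdm6a (1.02) and Chd2 (1.03). In what follows, a ratio is log2 of (CPM + 1) over (CPM + 1), a gene counts as called when it differs at least 2-fold and its higher library has 10 CPM or more, and intervals are 95% exact binomial intervals of the ratio of reads without the added 1, which cover counting error only. In RNA from bulk cultures, fewer cells of a type and less RNA per cell cannot be told apart.

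**Figure D1:**
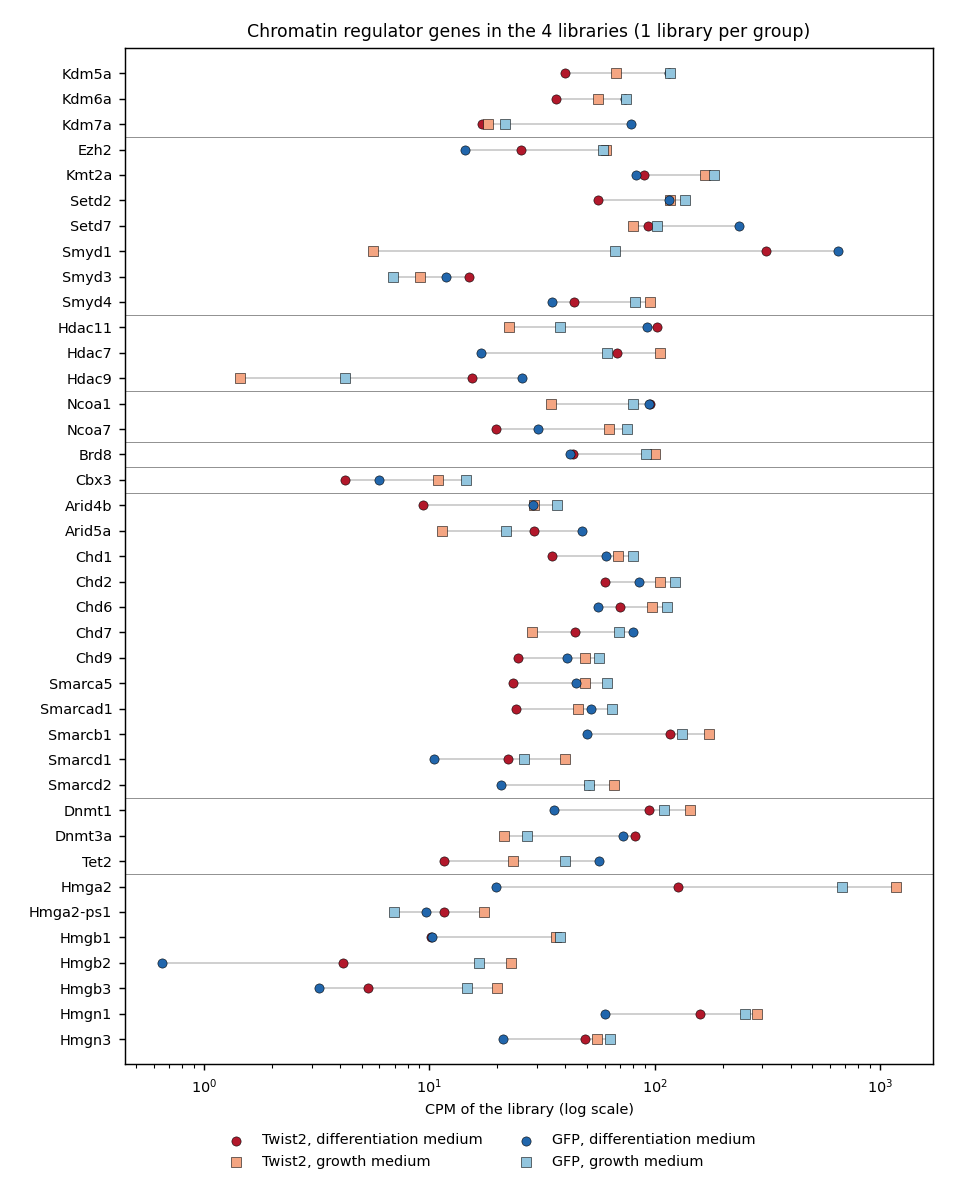
CPM of each of the 39 members in the 4 libraries on a log axis, with 1 library per group, in families separated by lines. Circles are differentiation medium and squares growth medium, red and orange are Twist2 and dark and light blue GFP, and a few points lie over each other, as for Hmgb1 and Kdm5a; Smyd1 and Hmga2 span the widest ranges among genes above 5 CPM in every library.

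Differentiation of the GFP cells gave the response of these myoblasts without added Twist2. High mobility group genes, the Polycomb methyltransferase Ezh2, the maintenance methyltransferase Dnmt1 and 3 BAF subunits were lower after 5 days, while Smyd1, the deacetylases Hdac9 and Hdac11, Dnmt3a and the demethylase Kdm7a were higher. Of the 38 members that reached 10 CPM in either library, 18 (47.4%) were called lower, against 40.9% of all listed genes, and 7 (18.4%) were called higher, against 32.6%. The median ratio of all 39 members was -0.46, beside -0.40 for all listed genes. Median-of-ratios size factors, another scaling, shifted the median of all listed genes by 0.34 in this comparison. The members then split into 8 higher and 10 lower, where 36.9% of all listed genes were called higher and 26.1% lower. Of the listed genes called in either direction, 44.4% were higher with the deposited scaling and 58.5% with size factors.

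Hmga2, an AT-hook protein of embryonic and proliferating cells, had the lowest ratio of the set. The gene lies on chromosome 10 (120361275 to 120476469, minus strand, GRCm38). It was listed at 19.8 CPM (183 reads) in GFP differentiation medium and 677 CPM (6599 reads) in GFP growth medium, a ratio of -5.03 with a counting interval of -5.31 to -4.88. In growth medium it was also the member with the highest level per length among these genes, at 178 CPM per kb of its longest annotated transcript in the GFP library. Hmgb2, a high mobility group box protein enriched in dividing cells (chromosome 8, 57511907 to 57515999, plus strand), was next, with 0.65 CPM (6 reads) in GFP differentiation medium and 16.6 CPM (162 reads) in GFP growth medium. Its ratio of -3.42 understates the difference because of the added 1 CPM, and the interval of the reads was -6.14 to -3.52.

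At the other end, Smyd1, a methyltransferase restricted to heart and skeletal muscle that also acts in sarcomere assembly, had the highest ratio (chromosome 6, 71213940 to 71322233, minus strand). It reached 648 CPM in GFP differentiation medium, against 66.2 CPM in GFP growth medium (3.27, interval 3.17 to 3.41). Hdac9, a class IIa deacetylase (chromosome 12, 34047580 to 34917095, minus strand), had 25.8 CPM (238 reads) in GFP differentiation medium and 4.21 CPM (41 reads) in GFP growth medium (2.36, interval 2.13 to 3.13).

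To show the promoters of the members that differed most, the 250 bases before the start site of Hmga2 and Hmgb2, lowest in GFP differentiation, and Smyd1 and Hdac9, highest there (the first of 2 listed starts for Hdac9) are printed 5′ to 3′ from RefSeq, build GRCm38.p6, at chr10:120476470-120476719 (minus strand), chr8:57511593-57511842 (plus), chr6:71262282-71262531 (minus) and chr12:34917096-34917345 (minus). Capitals mark matches, on either strand, to the E-box sequences CAGCTG and CACCTG and CATATG, to the E2F-type sequences TTTGGCGC and TTTCCCGC, to the CHR-type sequence TTTGAA known from cell cycle genes, and to the CCAAT box, spelled CCAAT. No match overlapped another. The Hmga2 and Hdac9 windows end at the gene starts given above, the Hmgb2 window lies before that start, and the Smyd1 window lies inside the GENCODE span given above, since the RefSeq start of Smyd1 differs from the GENCODE one at 71322233.
Hmga2: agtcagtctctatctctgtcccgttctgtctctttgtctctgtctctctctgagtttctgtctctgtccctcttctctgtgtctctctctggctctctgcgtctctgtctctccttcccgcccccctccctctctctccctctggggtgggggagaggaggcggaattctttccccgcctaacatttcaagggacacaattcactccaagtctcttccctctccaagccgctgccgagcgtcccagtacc
Hmgb2: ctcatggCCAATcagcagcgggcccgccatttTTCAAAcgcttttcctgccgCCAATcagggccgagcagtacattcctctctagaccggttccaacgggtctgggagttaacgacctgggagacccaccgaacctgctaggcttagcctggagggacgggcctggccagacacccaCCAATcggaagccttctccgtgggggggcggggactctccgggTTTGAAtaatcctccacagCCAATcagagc
Smyd1: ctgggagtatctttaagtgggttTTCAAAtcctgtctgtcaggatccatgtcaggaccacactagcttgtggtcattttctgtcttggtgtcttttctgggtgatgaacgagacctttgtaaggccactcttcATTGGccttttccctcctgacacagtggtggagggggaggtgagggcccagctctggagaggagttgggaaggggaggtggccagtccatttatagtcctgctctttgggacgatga
Hdac9: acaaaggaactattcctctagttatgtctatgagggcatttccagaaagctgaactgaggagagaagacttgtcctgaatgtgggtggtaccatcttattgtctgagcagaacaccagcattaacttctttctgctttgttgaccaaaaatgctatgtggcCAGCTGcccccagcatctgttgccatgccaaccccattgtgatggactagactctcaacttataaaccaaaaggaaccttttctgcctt

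The Hmgb2 window held 4 CCAAT boxes and 2 CHR-type elements, the last of them ending 25 bases before the start. Smyd1 had 1 of each of these motifs, Hdac9 had 1 CAGCTG E-box, and none of the motifs searched was in the Hmga2 window. Promoters matched 31 of the 39 members by symbol. Among these, 12 (38.7%) held a CCAAT box, against 37.5% of all 27025 genes with a promoter in the table, and 6 (19.4%) a CHR-type element, against 18.3%. The E-box CAGCTG was in 22.6% of members and 14.7% of all genes, CACCTG in 6.45% and 19.4%, and CATATG in 9.68% and 3.98%. Over the 2815 listed genes with a promoter, a CCAAT box was in 43.9% and a CHR-type element in 13.1%. CAGCTG was in 16.8% of these listed genes, CACCTG in 18.6% and CATATG in 2.13%. Each E2F-type sequence was in 1 member. A match describes letters in the window, not a bound site.

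The other protein-coding members of the high mobility group were lower too. These proteins loosen chromatin by binding the nucleosome (Hmgn1, Hmgn3) or by bending DNA (Hmgb1, Hmgb3). Hmgn1 was listed at 60.3 CPM in GFP differentiation medium and 251 CPM in GFP growth medium (-2.04), Hmgb3 at 3.25 and 14.7 CPM (-1.88), Hmgb1 at 10.3 and 37.8 CPM (-1.78) and Hmgn3 at 21.2 and 63.0 CPM (-1.53). All 6 protein-coding members of the family were thus called lower, against 40.9% of listed genes. With size factors all 6 were called lower as well (-4.68 to -1.18), against 26.1%. The pseudogene Hmga2-ps1, a transcribed copy on chromosome 1 (176834624 to 176836133 in RefSeq GRCm38.p6), had 9.64 CPM in GFP differentiation medium and 6.98 CPM in GFP growth medium and did not reach the minimum level. Reads of such copies are uncertain: GENCODE M21 holds 10 pseudogenes named for Hmgb1, 8 for Cbx3 and 1 each for Hmgb3, Dnmt3a and Smarca5, and no source used here says how shared reads were assigned.

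Among the writers, Ezh2, the catalytic subunit of Polycomb repressive complex PRC2 (chromosome 6, 47530139 to 47595341, minus strand), was listed at 14.4 CPM in GFP differentiation medium and 58.8 CPM in GFP growth medium (-1.96, interval -2.31 to -1.76). Dnmt1, which copies DNA methylation after replication, had 35.7 and 110 CPM (-1.59), whereas Dnmt3a, which methylates new sites, had 71.9 and 27.2 CPM (1.37). The DNA methylation genes thus held calls in opposite directions, with size factors as well (Dnmt1 -1.24, Dnmt3a 1.71). The third of them, Tet2, which oxidises methylated cytosine, had 56.6 CPM in GFP differentiation medium and 39.9 CPM in GFP growth medium (0.49).

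Kmt2a, a trithorax-type methyltransferase, stood at 82.4 and 183 CPM (-1.14), and Smyd4, a SET and MYND domain gene, at 35.1 and 81.7 CPM (-1.20). Setd7, a lysine methyltransferase of histones and other proteins, was higher at 236 and 103 CPM (1.19). Smyd3 (0.70) and Setd2 (-0.24, or 0.11 with size factors), the enzyme of a mark left along transcribed genes, were not called. With size factors Kmt2a (-0.79) and Smyd4 (-0.85) were short of the 2-fold threshold and Smyd3 (1.002) was just past it.

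Markers of proliferating cells were lower after GFP differentiation, as Hmga2, Hmgb2, Ezh2 and Dnmt1 were, whereas Dnmt3a and Setd7 were higher. The summed level of these markers, 8 listed genes of 9, was 56.3 CPM in GFP differentiation medium and 883 CPM in GFP growth medium. All 8 were called lower, against 40.9% of listed genes. Their part in the lower levels of Hmga2, Hmgb2, Ezh2 and Dnmt1 was not tested. The 6 markers of differentiated muscle, all called higher (32.6% of listed genes were), summed to 55818 CPM in GFP differentiation medium and 509 CPM in GFP growth medium.

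Of the erasers, 1 of 3 demethylases and all 3 deacetylases were called, where 32.6% of listed genes were called higher and 40.9% lower. With 3 genes in each family these counts are a description. Kdm7a, a demethylase of repressive histone marks (chromosome 6, 39136623 to 39206789, minus strand), was listed at 78.5 CPM in GFP differentiation medium and 21.7 CPM in GFP growth medium (1.81, interval 1.63 to 2.09). Kdm5a (116 and 117 CPM) and Kdm6a (73.8 and 74.6 CPM), demethylases of an active and of a repressive mark, differed by -0.02 and -0.01, each with an interval that included 0, and both ratios turned to 0.33 with size factors. Of the deacetylases, Hdac11, the class IV member, was higher (91.8 and 38.1 CPM, 1.25) and Hdac7, a class IIa member, lower (17.0 and 61.4 CPM, -1.79).

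Smarcb1, a core BAF subunit (chromosome 10, 75896769 to 75921617, minus strand), had 49.8 CPM in GFP differentiation medium and 132 CPM in GFP growth medium (-1.39), and the alternative subunits Smarcd1 (10.5 and 26.3 CPM, -1.25) and Smarcd2 (20.7 and 50.8 CPM, -1.26) stood at similar ratios. With size factors Smarcb1 alone of these 3 was called (-1.05). Smarca5, the ISWI ATPase, and Smarcad1, a related helicase, were not called (-0.44, and -0.29 or 0.05 with size factors), nor were Chd1, Chd2, Chd7 and Chd9 (-0.53 to 0.20). Chd6 lay at the threshold (-1.01) and was not called with size factors (-0.66) or with 5 CPM added (-0.96).

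Arid5a, whose protein binds DNA and messenger RNA, was higher (47.6 CPM in GFP differentiation medium and 21.9 CPM in GFP growth medium, 1.09, or 0.97 and not called with 5 CPM added), and Arid4b, a subunit of a Sin3 deacetylase complex, was not called (-0.34, or 0.00 with size factors). Of the remaining members, Brd8, a reader in the NuA4 acetyltransferase complex (-1.11), Cbx3, heterochromatin protein HP1 gamma (-1.16), and Ncoa7 (-1.28) were called lower, but none of these 3 with size factors (-0.93 to -0.76), and Cbx3 not with 5 CPM added (-0.84). Ncoa7 carries the coactivator name but is better known for a role in oxidative stress than in chromatin. Ncoa1, the steroid receptor coactivator, had 94.4 and 80.0 CPM (0.24).

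Differentiation of the Twist2 cells was measured between libraries that share none with the GFP response. Smyd1, Hdac9, Hdac11 and Dnmt3a were again higher and Hmga2, Hmgb2 and Ezh2 lower, while Dnmt1, Hmgn1 and the BAF subunits were not called. Of the 39 members, 12 (30.8%) were called lower, against 24.5% of all listed genes, and 6 (15.4%) were called higher, against 26.5%. The median was -0.80, beside -0.22 for all listed genes. With size factors the counts were 6 higher and 10 lower.

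Smyd1 again had the highest ratio, with 311 CPM (3845 reads) in Twist2 differentiation medium and 5.60 CPM (62 reads) in Twist2 growth medium (5.56, interval 5.43 to 6.18). Hdac9 had 15.5 CPM in Twist2 differentiation medium and 1.45 CPM (16 reads) in Twist2 growth medium (2.75, interval 2.68 to 4.25). Hdac11 followed at 103 and 22.6 CPM (2.13), Dnmt3a at 82.0 and 21.3 CPM (1.90) and Arid5a at 29.0 and 11.4 CPM (1.28). These 5 were called higher in GFP cells too, which is 83.3% of the 6 calls in Twist2 cells and 71.4% of the 7 in GFP cells. Over all listed genes the shares were 77.3% and 63.2%. Ncoa1 was the sixth, at 94.7 CPM in Twist2 differentiation medium and 34.6 CPM in Twist2 growth medium (1.43).

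The lowest members were again Hmga2, with 126 CPM in Twist2 differentiation medium and 1178 CPM in Twist2 growth medium (-3.21, interval -3.30 to -3.14), and Hmgb2, with 4.13 CPM (51 reads) and 22.9 CPM (254 reads) (-2.22). Calls shared with GFP cells were Hmga2, Hmgb2, Hmgb1 (-1.75), Hmgb3 (-1.72), Ezh2 (25.6 and 60.8 CPM, -1.22), Smyd4 (-1.11), Brd8 (-1.19), Cbx3 (-1.20) and Ncoa7 (-1.61). These 9 make up 75% of the lower calls in Twist2 cells and 50% of those in GFP cells, beside 66.6% and 40.2% over all listed genes. Setd2 (-1.04), Smarca5 (-1.03) and Arid4b (9.38 and 29.1 CPM, -1.54) were called in Twist2 cells without a call in GFP cells. Setd2 and Smarca5 lie at the threshold and were not called with size factors or with 5 CPM added, nor was Cbx3 with 5 CPM added (-0.79).

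The proliferation markers were at 263 CPM in Twist2 differentiation medium and 1345 CPM in Twist2 growth medium, with 5 of 8 called lower. Across the 39 members the 2 responses had a Spearman rho of 0.69 and a Pearson r of 0.82, and across the 3760 listed genes 0.73 and 0.81. These correlations run across genes, which are not independent replicates, and are given as a description.

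**Figure D2:**
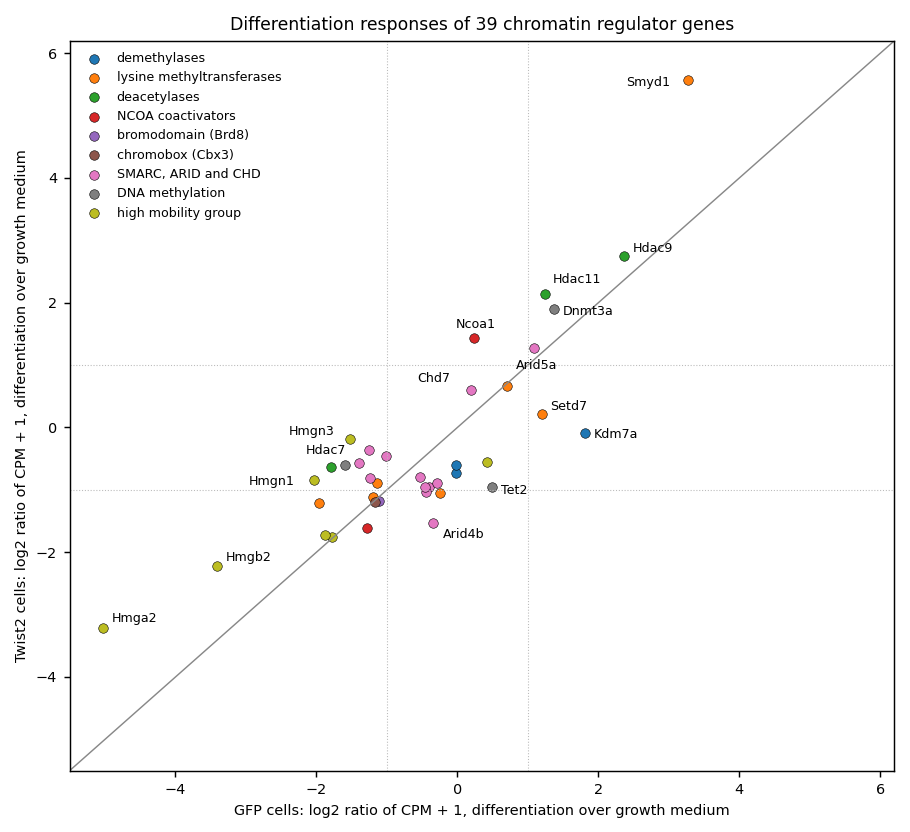
Log2 ratio of CPM + 1 in differentiation over growth medium for the 39 members, in GFP cells on the x axis and in Twist2 cells on the y axis, coloured by family, with 1 library per group. The grey diagonal marks equal ratios and dotted lines the 2-fold thresholds; Hmga2, Hmgb2 and Smyd1 lie above the diagonal and Kdm7a, Tet2 and Arid4b below it.

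The difference of the responses, Twist2 ratio minus GFP ratio, was at least 1 in 7 members (17.9%), against 25.5% of listed genes, and -1 or less in 3 (7.69%), against 12.6%. It was not tested, since 1 library per group allows no interaction test. On the positive side stood Smyd1 (2.29), Hmga2 (1.82), Hmgn3 (1.35), Hmgn1 (1.20), Hmgb2 (1.19), Ncoa1 (1.19) and Hdac7 (1.16). On the negative side stood Kdm7a (-1.90), Tet2 (-1.45) and Arid4b (-1.20). With 5 CPM added, Hmgb2, which has 6 reads in GFP differentiation medium, was at 0.32, Hdac7 at 0.99 and Arid4b at -0.94, all short of the threshold.

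The genes with a positive value differed in where their libraries stood. For Smyd1 the growth medium libraries were apart, with 5.60 CPM in the Twist2 library against 66.2 CPM in the GFP library. For Hmgn1 and Hmgn3 the responses were negative in both cell types, with ratios of -0.84 and -0.18 in Twist2 cells, against -2.04 and -1.53 in GFP cells. Kdm7a did not differ between the Twist2 libraries beyond counting error (17.1 CPM in differentiation medium and 18.3 CPM in growth medium, interval -0.37 to 0.20), where GFP cells had a ratio of 1.81. Size factors shifted the median of all listed genes by -0.29 and gave 3 members at 1 or more (Smyd1, Hmga2 and Hmgn3) and 7 at -1 or less, and the members' median was 0.16 with the deposited scaling and -0.11 with size factors. Of all listed genes past 1 in either direction, 66.9% were positive with the deposited scaling and 47.4% with size factors.

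Twist2 against GFP was compared next within each medium. In growth medium Smyd1 stood apart from the rest. Of 37 members with enough reads, 3 (8.11%) were called lower, against 10.6% of listed genes, and 1 (2.70%) was called higher, against 5.21%. Size factors shifted the median of all listed genes by 0.23 and gave 3 higher, Hmga2 (1.04), Hdac7 (1.01) and Hmga2-ps1, and 2 lower. Of all listed genes called in growth medium, 33.0% were higher with the deposited scaling and 53.0% with size factors.

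Smyd1 had by far the lowest ratio there, at 5.60 CPM in the Twist2 library and 66.2 CPM in the GFP library, 11.8-fold lower in CPM (-3.35, interval -3.96 to -3.19). Chd7, a CHD remodeller of developmental enhancers, had 28.6 CPM in the Twist2 library and 69.2 CPM in the GFP library (-1.25), and Ncoa1 34.6 and 80.0 CPM (-1.19). Hdac9 was lower in reads (16 in the Twist2 and 41 in the GFP library) but stayed under the minimum level. Hmga2-ps1 was the only member called higher, at 17.5 and 6.98 CPM (1.22), while Hmga2 itself had 1178 and 677 CPM (0.80, interval 0.76 to 0.84); whether pseudogene reads come from Hmga2 was not tested. The muscle markers summed to 42.5 CPM in the Twist2 library and 509 CPM in the GFP library, and the proliferation markers to 1345 and 883 CPM. Of the 6 muscle markers 5 were called lower, as Smyd1 was, and their part in its level was not tested.

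In differentiation medium Hmga2 and Hdac7 were highest in the Twist2 library relative to the GFP library, and Tet2 and Kdm7a lowest. Of 36 members with enough reads, 8 (22.2%) were called higher in the Twist2 library, against 25.4% of listed genes, and 9 (25%) lower, against 25.2%. Both shares are close to those of the whole table, so the counts are no result about the members. The higher calls were Hmga2, Hmgn1, Hmgn3, Smarcb1, Smarcd1, Smarcd2, Dnmt1 and Hdac7, and the lower calls held all 3 demethylases, Tet2, Setd2, Setd7, Smyd1, Smarcad1 and Arid4b. The authors' selection did not use this contrast itself, but it used both of its libraries, each against GFP growth medium. It passed 11 members only on Twist2 differentiation medium and 12 only on GFP differentiation medium. These calls are therefore not independent of the selection.

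Hmga2 had the highest ratio, at 126 CPM in the Twist2 library and 19.8 CPM in the GFP library (2.61, interval 2.45 to 2.90). Hdac7, on chromosome 15 (97792664 to 97844502, minus strand), had 67.7 and 17.0 CPM (1.93, interval 1.75 to 2.25). Hmgn1 had 159 and 60.3 CPM (1.38), Dnmt1 93.8 and 35.7 CPM (1.37) and Hmgn3 48.8 and 21.2 CPM (1.16). The BAF subunits had 51.0 and 20.7 CPM for Smarcd2 (1.26), 117 and 49.8 CPM for Smarcb1 (1.22) and 22.3 and 10.5 CPM for Smarcd1 (1.02). Smarcd1 lay at the threshold and was not called with size factors (0.96) or with 5 CPM added (0.82).

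Each of these 8 genes was also called lower in GFP differentiation, a comparison that shares the GFP differentiation medium library. A low level in that library favours both calls, so the overlap is no separate result. The same overlap over all listed genes was not counted. In Twist2 differentiation medium 6 of the 8 genes lay between the levels of the GFP libraries. Smarcd2 (51.0 CPM) was level with GFP growth medium (50.8 CPM), and Hdac7 (67.7 CPM) was above it (61.4 CPM). Hmgb2 (1.64) lay in the same direction on 51 reads in the Twist2 library and 6 reads in the GFP library, under the minimum level. Ezh2 had 25.6 and 14.4 CPM (0.79) and was not called. The proliferation markers summed to 263 CPM in the Twist2 library and 56.3 CPM in the GFP library, with 7 of 8 called higher, and their part in these results was not tested.

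Tet2, on chromosome 3 (133463679 to 133545139, minus strand), had the lowest ratio, at 11.6 CPM in the Twist2 library and 56.6 CPM in the GFP library (-2.19, interval -2.56 to -2.01). Kdm7a was next, with 17.1 and 78.5 CPM (-2.13, interval -2.42 to -1.97). Kdm5a had 40.0 and 116 CPM (-1.51) and Kdm6a, at the threshold, 36.4 and 73.8 CPM (-1.001). All 3 listed demethylases were thus called lower, against 25.2% of listed genes. They were also called with size factors (-2.19 to -1.06), but Kdm6a not with 5 CPM added (-0.93). Tet2, Kdm5a and Kdm6a had passed the authors' selection only on Twist2 differentiation medium. Of the 400 listed genes with longest transcripts of 7441 to 16470 bp, a range that holds Kdm5a and Kdm7a, 47% were called lower. Kdm6a (5935 bp) lies outside that range.

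Setd7 had 93.3 CPM in the Twist2 library and 236 CPM in the GFP library (-1.33), Setd2 56.1 and 115 CPM (-1.02), and Smyd1 311 and 648 CPM (-1.06). Arid4b stood at 9.38 and 28.9 CPM (-1.53) and Smarcad1 at 24.1 and 52.3 CPM (-1.09). With 5 CPM added, Setd2 (-0.97) and Smarcad1 (-0.98) were not called. Dnmt3a (82.0 and 71.9 CPM, 0.19), Hdac11 (103 and 91.8 CPM, 0.16) and Ncoa1 (94.7 and 94.4 CPM, 0.00) were close in both libraries. The differentiated muscle markers, all 6 called lower, summed to 7380 CPM in the Twist2 library and 55818 CPM in the GFP library.

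Levels of further members in every library follow in the order Twist2 differentiation medium, Twist2 growth medium, GFP differentiation medium and GFP growth medium. Chd1 had 34.9, 68.3, 60.5 and 80.0 CPM. Chd2 had 59.9, 105, 85.1 and 122.9 CPM, and Chd9 24.8, 48.8, 40.9 and 56.6 CPM. In these CHD genes the Twist2 differentiation medium library was the lowest of the 4 and GFP growth medium the highest. Chd1, Chd2 and Chd9 passed the authors' selection only on Twist2 differentiation medium. That alone makes this library their lowest, so its place is no separate result.

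The lowest and highest libraries were the same for Smarca5 (23.5, 49.0, 44.7 and 61.1 CPM) and Smarcad1 (24.1, 45.4, 52.3 and 64.3 CPM). Both also passed the selection only on Twist2 differentiation medium, which sets their lowest library. Chd6, at 70.1, 97.1, 56.0 and 114 CPM, was lowest in GFP differentiation medium instead, the only library on which it passed. Brd8 had 43.4, 99.9, 41.9 and 91.5 CPM, so its libraries paired by medium and not by virus. Ncoa7, at 19.8, 62.5, 30.4 and 75.1 CPM, and Cbx3, at 4.21, 10.9, 5.96 and 14.6 CPM, were lower in both differentiation media than in both growth media. Smyd3 had 15.0, 9.13, 11.8 and 6.88 CPM and no call in the comparisons above with the deposited scaling.

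In the same order of libraries, Kmt2a had 89.5, 167, 82.4 and 183 CPM and Smyd4 43.6, 95.6, 35.1 and 81.7 CPM. Hmgb1 had 10.1, 36.4, 10.3 and 37.8 CPM and Hmgb3 5.34, 19.9, 3.25 and 14.7 CPM. All 4 genes were lower in both differentiation medium libraries than in both growth medium libraries. Chd7 had 44.0, 28.6, 79.6 and 69.2 CPM, with both Twist2 libraries below both GFP libraries.

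The Twist2 growth medium library held the highest of the 4 levels of several genes that were called lower in GFP differentiation. It had 285 CPM of Hmgn1, 174 CPM of Smarcb1, 143 CPM of Dnmt1, 106 CPM of Hdac7, 66.0 CPM of Smarcd2 and 39.9 CPM of Smarcd1. Its levels of Hmgn3 (55.4 CPM), Kdm5a (67.2 CPM), Kdm6a (55.7 CPM), Setd2 (117 CPM), Setd7 (80.1 CPM) and Tet2 (23.6 CPM) were below those of the GFP growth medium library, where Setd2 had 136 CPM, but with size factors the ratios of Hmgn3 (0.05) and Setd2 (0.02) turned positive. Hmga2-ps1 had 11.6 CPM in Twist2 differentiation medium.

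**Figure D3:**
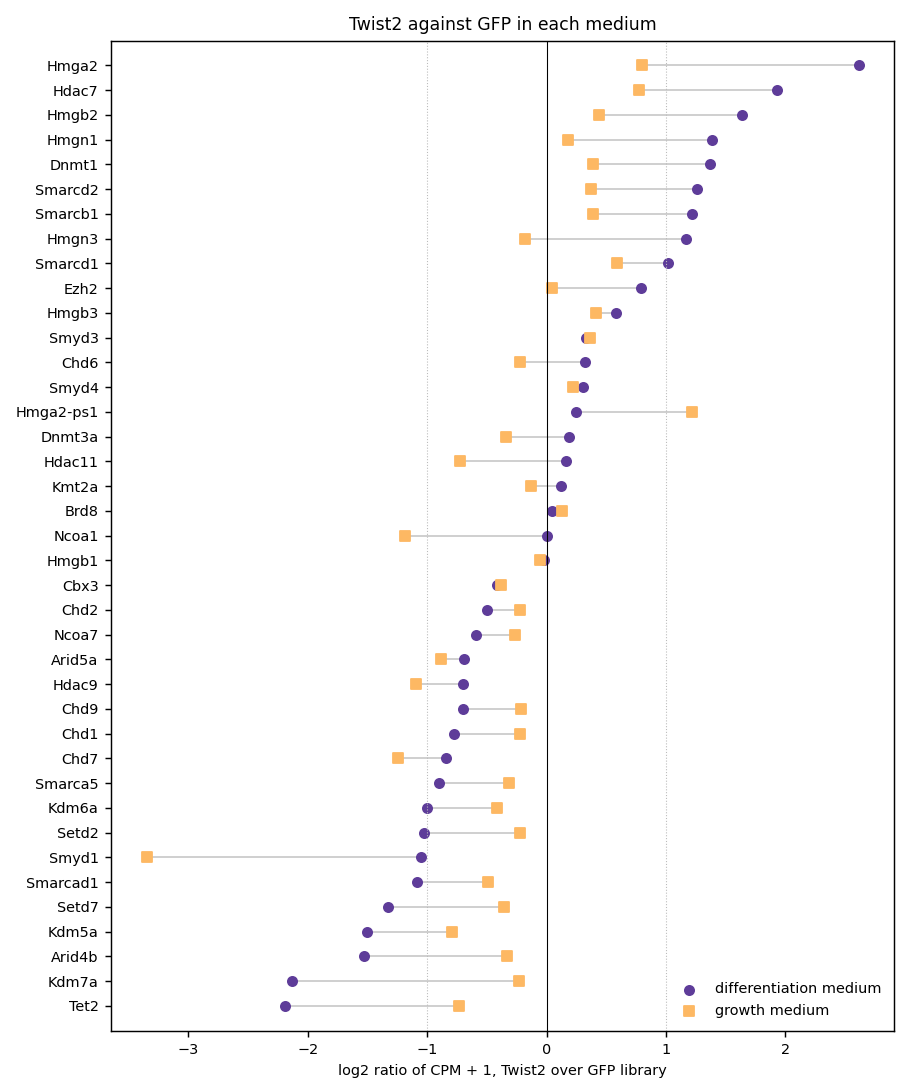
Log2 ratio of CPM + 1, Twist2 over GFP library, for each member in differentiation medium (purple circles) and growth medium (orange squares), ordered by the value in differentiation medium, with 1 library per group and dotted lines at 2-fold. Tet2 and Kdm7a are lowest and Hmga2 and Hdac7 highest in differentiation medium, and Smyd1 at -3.35 is the lowest in growth medium.

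Transcript length, which the choice of members did not use, went with the ratios. In differentiation medium the 9 members called lower in the Twist2 library had longest annotated transcripts with a median of 7411 bp (3361 to 10944 bp), and the 8 called higher a median of 3559 bp (1391 to 7441 bp). Over all listed genes called, these medians were 5094 bp and 3595 bp. Spearman's rho between length and ratio was -0.50 across the 38 members with a length and -0.21 across 3747 listed genes. In GFP differentiation it was 0.50 across members and -0.01 across listed genes, and in Twist2 differentiation 0.26 and -0.13. The points share their libraries, no p-value is given, and a part of length or RNA quality in the results was not tested.

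With the members divided by length, the 13 longest members (7441 to 16470 bp) had a median ratio of -0.70 in Twist2 against GFP differentiation medium, and the 400 listed genes of the same lengths -0.95. The 12 shortest (1391 to 3517 bp) had a median of 0.68, and 1312 listed genes of these lengths 0.30. In GFP differentiation the longest members had a median of -0.24 and the shortest -1.39, against -0.08 and -0.44 for listed genes of the same lengths. Kmt2a, the longest of all at 16470 bp, had a ratio of 0.12 in differentiation medium, so length and ratio did not go together for every gene.

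**Figure D4:**
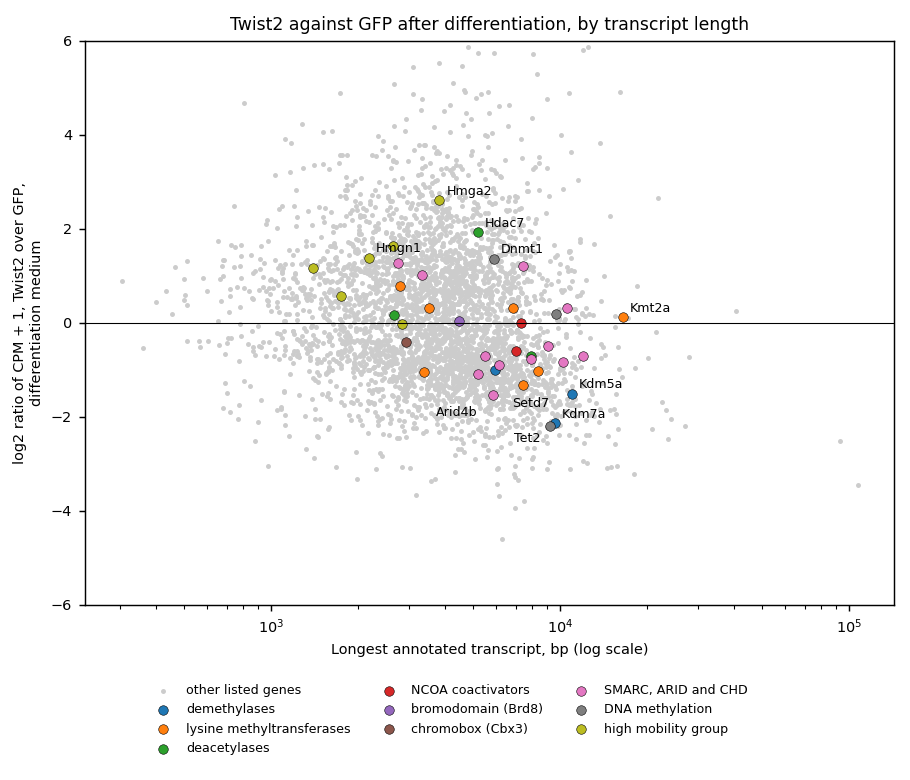
Log2 ratio of CPM + 1, Twist2 over GFP library in differentiation medium, against the longest annotated transcript on a log axis, for 38 members coloured by family (Hmga2-ps1 has no length) and for other listed genes in grey, 8 of which lie outside the plot. Members called lower, such as Kdm7a, Tet2 and Kdm5a, lie mainly to the right and high mobility group genes to the left.

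Other chromatin genes that the name patterns do not cover gave further values. Of 133 such names 34 were listed. In GFP differentiation 19 of the 33 that reached 10 CPM (57.6%) were called lower, against 40.9% of listed genes, and 2 (6.06%) higher, against 32.6%. With size factors, a scaling of these lists added after seeing the data, 14 of 32 (43.8%) were lower, against 26.1% of listed genes, and 3 higher.

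In Twist2 differentiation 17 of 34 (50%) were lower, against 24.5% of listed genes, and 1 higher, against 26.5%; with size factors 16 were lower and 1 higher. In Twist2 against GFP differentiation medium 6 of 30 (20%) were higher, against 25.4%, and 7 (23.3%) lower, against 25.2%, shares near those of the whole table, so these counts are no result about the genes. The list of replication-coupled chromatin supplied 17 of the 34 genes. It also holds genes of chromosome structure and mitosis, such as Smc2, Smc4, Cdca5, Cenpa and Lmnb1. It held 15 of the 19 lower calls in GFP cells (93.8% of its 16 genes at 10 CPM, against 40.9% of listed genes). In Twist2 cells it held 12 of the 17 (70.6% of its genes, against 24.5%), and with size factors 13 and 11 lower calls in GFP and Twist2 cells.

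Uhrf1, which brings Dnmt1 to newly replicated DNA, had 26.5 CPM in Twist2 differentiation medium and 54.3 CPM in Twist2 growth medium, 2.17 CPM in GFP differentiation medium and 36.7 CPM in GFP growth medium. The assembly factor subunit Chaf1a had 23.2, 34.7, 2.49 and 23.8 CPM in that order of groups. Uhrf1 and Chaf1a were thus on the same side as Dnmt1 in all 4 comparisons, which share libraries and are not separate results. Not all 17 genes of their list were. In Twist2 against GFP differentiation medium 5 were called higher and Smc3 (-1.03) was called lower. Dek (-0.58) and Smc4 (-0.58) were negative there without a call. Suv39h1, a methyltransferase of heterochromatin, was the gene of these lists with the largest ratio between the viruses. It reached 244 CPM in Twist2 differentiation medium and 18.2 CPM in GFP differentiation medium (3.68), and 532 CPM in Twist2 growth medium and 141 CPM in GFP growth medium (1.91).

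Suz12, another PRC2 subunit, had 26.1 CPM in Twist2 differentiation medium and 71.5 CPM in GFP differentiation medium (-1.42), where Ezh2 had a ratio of 0.79. Of 7 listed Polycomb genes 3 were called lower there (42.9%, against 25.2% of listed genes), Suz12, Mtf2 (-1.54) and Phc3 (-1.43), and L3mbtl3, a reader of methylated histones (1.09), was called higher. With 7 genes and no replicate these shares are a description. Among other writers and erasers Jmjd1c (-1.57) was called lower in the Twist2 library, 1 of 5 genes at 10 CPM (20%). Among remodellers and corepressors Atrx (-1.89) and the PBAF subunit Pbrm1 (-1.42) were, 2 of 4 (50%). Ehmt2 (0.88), Rcor2 (0.99) and Sirt2 (0.14) were positive, and Dot1l (-0.77), Hr (-0.33), Sirt1 (-0.36) and Satb1 (-0.83) negative, all without a call. Jmjd1c, Atrx and Pbrm1 have long transcripts (7907 to 10275 bp), and 47% of listed genes of 7441 to 16470 bp were called lower. Of the Polycomb genes called lower, Phc3 (10976 bp) lies in that range, but Suz12 (4373 bp) and Mtf2 (4060 bp) do not. A part of length in these calls was not tested.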

How the data were processed

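Total RNA of 4 libraries, 1 per group, was measured. The values the authors deposited for 3760 genes are CPM, in 1 column per library, and log2 ratios, in 3 columns whose reference is GFP growth medium by the header. TopHat2 2.0.0, DESeq2 1.6.3 and the build GRCm38 (mm10) are named in the submitters' processing notes, without their roles; no source used here names the read counter, the annotation or a strand setting. The deposited log2 columns matched the ratio of CPM + 1 within 1.27e-11. The status column holds 1 in every row and was not used.

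All CPM values were whole multiples of 1 read (within 0.001 reads, 100% of values). The library sizes so obtained, 9.24e+06 to 1.24e+07, are not whole numbers, so they may be normalized sizes and need not equal the reads sequenced.

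With 1 library per group, no count model was fitted. Ratios use a pseudocount of 1 CPM, which understates changes of low genes. Calls need at least 2-fold and 10 CPM in the higher library. Clopper-Pearson 95% intervals came from the reads; without molecular identifiers, reads of 1 molecule can be counted repeatedly, so the intervals cover counting error only. Positions and longest transcripts are from GENCODE M21, Hmga2-ps1 and promoters from RefSeq GRCm38.p6. Any member could be named, with full values for the 5 highest and 5 lowest of each comparison, the extremes of each family and a list of well-known regulators. Members and lists were chosen with earlier results of these data known. Python 3.11.15 with scipy 1.17.1 was used, and the calculation was tested on simulated data.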

Additional observations from a re-analysis of the deposited data

Results flagged for a closer look

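Tet2 went in opposite directions in the responses to differentiation, with both counting intervals away from 0. Its log2 ratio was -0.96 in Twist2 cells (11.6 CPM in Twist2 differentiation medium and 23.6 CPM in Twist2 growth medium, interval -1.32 to -0.72) and 0.49 in GFP cells (56.6 CPM in GFP differentiation medium and 39.9 CPM in GFP growth medium, interval 0.31 to 0.70). Tet2 was the 1 member of 39 (2.56%) with this pattern, which 358 of 3760 listed genes (9.52%) had. Neither ratio reached 2-fold with a pseudocount of 1 CPM (-1.01 in Twist2 cells with 0.1 CPM), and the difference was not tested. Tet2 had passed the authors' selection only on Twist2 differentiation medium, a low library that its ratio in Twist2 cells uses. The pattern is therefore not independent of the selection.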

How the results depend on the processing

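Median-of-ratios size factors changed the counts most. With them the members at least 2-fold lower in GFP differentiation numbered 10 in place of 18, those higher with Twist2 in growth medium 3 in place of 1, and in the difference of responses 3 were at 1 or more in place of 7 and 7 at -1 or less in place of 3, and the median was -0.11 in place of 0.16. The cause was not tested. The single gene higher with Twist2 in growth medium is Hmga2-ps1, and the count was 0 with a pseudocount of 5 CPM, with a minimum of 20 CPM and, an alternative chosen after seeing the data, without that pseudogene. All other counts stayed within 1.5 times under pseudocounts of 0.1 and 5 CPM, size factors, no minimum, a minimum of 20 CPM and the set without Ncoa7. Scaling to the reads outside the table was not run, because the library sizes may not be read totals. No paired analysis was possible because each group has 1 library. With 1 library there is no replicate to leave out. Depth limits Hmgb2, Hdac9, Hmgb3 and Cbx3, whose lowest libraries hold 6, 16, 30 and 52 reads.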
